A study of Rattus norvegicus with 6 samples.

Results

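The transcripts described here encode the proteins that release calcium from the endoplasmic reticulum (ER) and pump it back into the ER or out of the cell. Their 10 genes were chosen by symbol from a count table of 22601 genes made from the hippocampus of rats of 2 ages. The members are the ryanodine receptor genes Ryr1, Ryr2 and Ryr3, the inositol trisphosphate (IP3) receptor genes Itpr1, Itpr2 and Itpr3, the ER pump gene Atp2a2, and the plasma membrane pump genes Atp2b1, Atp2b2 and Atp2b4. Aged rats were 22 months old and adult rats 4 months old, all male, of the outbred Sprague Dawley strain and with no other treatment given in the labels. Spatial memory was first tested in the Morris water maze in 10 rats per age. RNA of the ventral hippocampus was then sequenced from 3 randomly chosen rats per age, so each of the 6 libraries stands for 1 rat that had been through the maze. Library totals lay between 12476758 and 15689921 counts.

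Calcium stored in the ER reaches the cytosol through tetrameric channels. IP3 receptors open when IP3, made by phospholipase C below Gq-coupled receptors, is bound, and ryanodine receptors open in response to calcium itself, so that they amplify calcium that enters through voltage-gated channels and NMDA receptors. The signal is ended by P-type ATPases, of which SERCA pumps refill the ER and PMCA pumps expel calcium across the plasma membrane. In hippocampal neurons these proteins shape synaptic plasticity and the slow afterhyperpolarisation, and they have long been studied in brain ageing.

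All 10 genes were expressed in each of the 6 rats and passed the filter on low counts, and none of them was shown to differ between aged and adult rats beyond the spread between rats. With edgeR's quasi-likelihood test, 0 of the 10 genes passed an adjusted p of 0.05 (Benjamini-Hochberg over 14588 genes), beside a background of 0.0% of all genes tested. At an unadjusted p under 0.05 there were 0 of the 10, beside 3.45% of all genes (503 genes). DESeq2 called 0 of the 10, against 0.213% of all genes with an adjusted p, and limma-voom called 0, against 0.0%. In none of the 10 were the CPM values of the ages separate, as they were for 7.56% of all genes. The median log2 fold change (aged over adult) of the 10 genes was -0.0031, with 5 above and 5 below 0, and that of all genes was -0.0022, with 49.5% above 0. A group of 3 rats leaves room for differences that the test missed. The 95% interval of the fold change lay within 2-fold in either direction for 8 of the 10 genes and within 1.5-fold for 1, Atp2a2, while the intervals of Ryr1 and Atp2b4 reached past 2-fold.

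Markers of hippocampal neurons were read in each library, of which Slc17a7 is shared with cortex and cannot tell hippocampus from cortex. Slc17a7, the vesicular glutamate transporter of hippocampal and cortical excitatory neurons, stood between 762 and 1338 CPM in aged rats and between 681 and 1143 CPM in adult rats. Prox1, a transcription factor of dentate granule cells, stood between 28.4 and 63.3 CPM in aged rats and between 50.1 and 100.1 CPM in adult rats. CPM values are library-size corrected counts scaled by TMM. In bulk tissue, fewer cells of a type and less RNA per cell cannot be told apart, and this holds for each gene below. The labels name the hippocampus and the design text its ventral part, and how much of each hippocampal field a piece held is not given.

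Promoter windows are shown for 3 genes. Atp2b1 and Itpr1 were chosen because, of the 4 members that were lowest in the same pair of libraries, their transcripts lay furthest below their means there, and Atp2b4 because its transcript was among the most variable between rats. The windows are RefSeq sequences on build GRCr8, from 250 bases before to 50 bases after an annotated transcript start, and are written 5′ to 3′ on the gene's own strand. Capitals mark GC boxes (GGGCGG or its complement CCGCCC), the letters bound by Sp1-type factors, and TATA boxes (TATAAA or TTTATA), of which these 3 windows held 0. The Atp2b1 window lies at chr7:35622211-35622510 on the plus strand, the Itpr1 window at chr4:142743190-142743489 on the plus strand, and the Atp2b4 window at chr13:47758827-47759126 on the minus strand.
Atp2b1: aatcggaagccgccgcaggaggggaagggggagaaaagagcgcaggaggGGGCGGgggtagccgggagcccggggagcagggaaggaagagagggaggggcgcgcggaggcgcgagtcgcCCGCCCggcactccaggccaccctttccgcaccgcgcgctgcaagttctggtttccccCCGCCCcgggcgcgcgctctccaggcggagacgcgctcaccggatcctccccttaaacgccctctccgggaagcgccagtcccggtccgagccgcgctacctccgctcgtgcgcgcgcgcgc
Itpr1: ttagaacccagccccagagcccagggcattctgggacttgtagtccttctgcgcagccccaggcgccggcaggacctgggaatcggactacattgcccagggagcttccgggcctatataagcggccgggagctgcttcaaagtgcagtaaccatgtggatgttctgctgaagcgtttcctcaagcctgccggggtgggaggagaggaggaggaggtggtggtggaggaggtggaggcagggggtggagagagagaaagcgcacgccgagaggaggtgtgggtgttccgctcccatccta
Atp2b4: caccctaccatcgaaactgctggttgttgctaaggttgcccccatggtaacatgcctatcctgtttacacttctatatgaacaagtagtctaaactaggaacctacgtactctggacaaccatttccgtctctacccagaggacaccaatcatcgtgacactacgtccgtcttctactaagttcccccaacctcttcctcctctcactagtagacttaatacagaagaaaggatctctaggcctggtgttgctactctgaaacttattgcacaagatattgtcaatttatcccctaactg

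The Atp2b1 window held 3 GC boxes and a GC content of 74.3%, above 96.3% of all 33469 windows. The Itpr1 window held 0 GC boxes at 62% GC. The Atp2b4 window also held 0, at 44.7% GC, which was above only 24.1% of windows, and its transcript start lies 48513 bases inside the outer end of the annotated gene. Of all windows, 33.1% held a GC box and 14.2% a TATA box on either strand. Among the other members, Itpr3 had 5 GC boxes, Itpr2 had 4, and Atp2a2, Atp2b2 and Ryr2 had 3 each. Ryr1 had 2, and the 2 windows of Ryr3 had 2 and 1. Their GC content lay between 46.0% (the second Ryr3 window) and 79.0% (Atp2a2). No match means only that these letters are not in this window.

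The order of the genes was compared by FPKM, which divides each count by gene length. The pumps led. Atp2a2, the housekeeping ER pump SERCA2, averaged 140.7 ± 16.8 FPKM (SD, n = 6) and stood above every other member in each rat. It was followed by Atp2b1, the widely expressed plasma membrane pump PMCA1, at 50.2 ± 14.9 FPKM, and Atp2b2, the fast neuronal pump PMCA2, at 42.2 ± 6.98 FPKM. Itpr1, the main neuronal IP3 receptor, averaged 26.5 ± 6.76 FPKM. Ryr2, known from heart and as the most abundant ryanodine receptor of brain, averaged 16.8 ± 4.92 FPKM, and Atp2b4, the pump PMCA4, 13.2 ± 6.0 FPKM. Ryr3, an isoform found in hippocampus and other brain regions, averaged 6.04 ± 1.38 FPKM. Ryr1, the channel of skeletal muscle, averaged 1.66 ± 1.00 FPKM. Itpr2, an IP3 receptor of astrocytes, averaged 1.39 ± 0.295 FPKM, and Itpr3, best known from epithelia, 0.712 ± 0.137 FPKM. Of the 9 neighbouring pairs in this order, 3 had ranges over the rats that did not overlap, namely Atp2a2 above Atp2b1, Ryr3 above Ryr1 and Itpr2 above Itpr3. Within each of the 6 rats the same order was kept by 5 pairs, these 3 and also Atp2b2 above Itpr1 and Itpr1 above Ryr2. The order of the other pairs changed between rats.

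**Figure D1:**
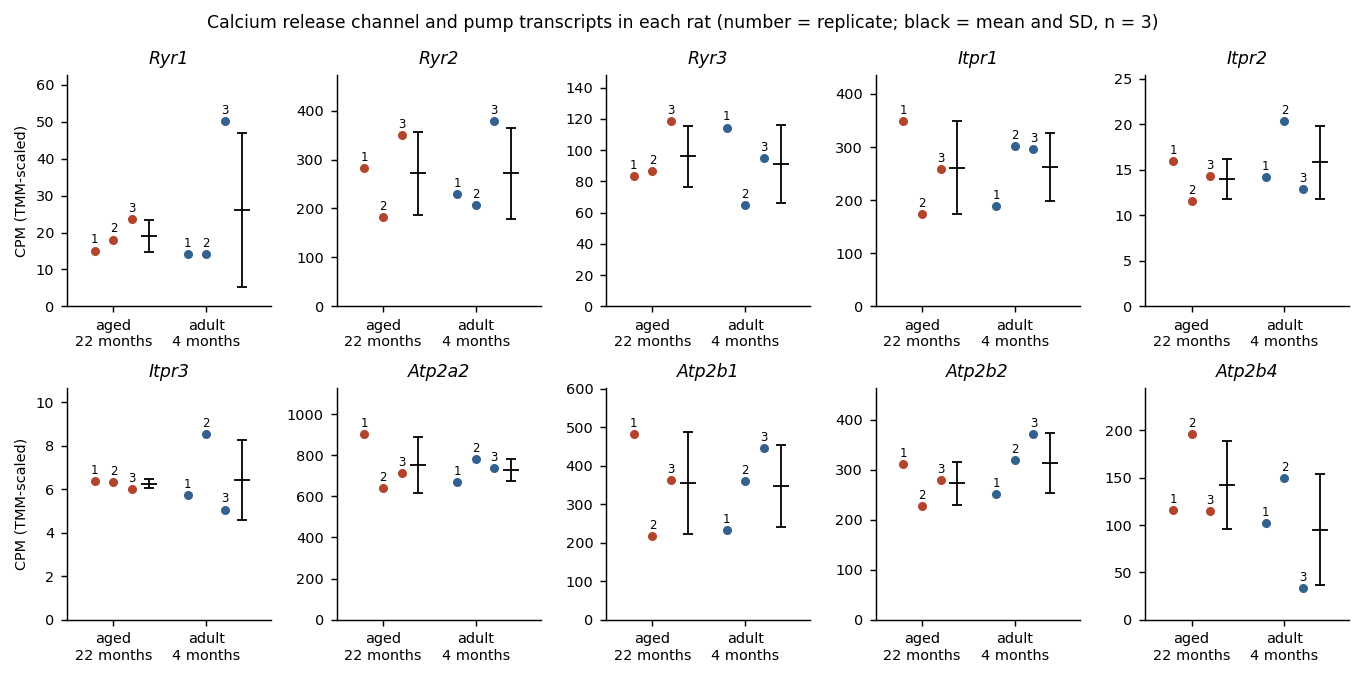
Expression of the 10 genes in each rat, in TMM-scaled CPM on linear axes that start at 0, with aged rats left of adult rats. Each point is a rat with its replicate number, and black bars are the mean and SD of 3 rats. The aged and adult points overlap in all 10 panels, and adult replicate 3 stands alone high for Ryr1 (50.3 CPM) and low for Atp2b4 (33.5 CPM).

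Among the ryanodine receptors, Ryr2 was at 282, 183 and 351 CPM in aged replicates 1 to 3 and at 229, 207 and 379 CPM in adult replicates 1 to 3. Replicate 3 was the highest rat of each age, and the ages overlapped, with the lowest rat aged and the highest adult. The means were 271.7 ± 84.5 CPM in aged rats and 271.7 ± 93.5 CPM in adult rats (SD, n = 3 each). Its log2 fold change was 0.00070 ± 0.29 (SE), with a 95% interval of -0.67 to 0.67 and an adjusted p of 1.00 by edgeR. Without aged replicate 3 it was -0.23, and without adult replicate 3 it was 0.33.

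Ryr3 was at 83.3, 86.7 and 118.8 CPM in aged rats and at 114.5, 65.0 and 94.7 CPM in adult rats. Its highest rat was aged and its lowest adult, with the remaining rats mixed between them. Its log2 fold change was 0.07 ± 0.22 (SE) with a 95% interval of -0.44 to 0.59 (edgeR adjusted p = 1.00).

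Ryr1 was at 15.1, 18.1 and 23.7 CPM in aged rats and at 14.2, 14.1 and 50.3 CPM in adult rats. A single library, adult replicate 3, set the adult mean of 26.2 ± 20.8 CPM beside 18.9 ± 4.34 CPM in aged rats. With all rats the log2 fold change was -0.47 ± 0.48 (SE), with an interval of -1.58 to 0.65 and an adjusted p of 1.00 by edgeR. Without adult replicate 3 it was 0.43, with an unadjusted p of 0.108 by edgeR over all genes (adjusted p = 1.00).

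The summed markers of skeletal muscle, dentate granule cells, CA3 pyramidal cells and excitatory neurons were also highest in adult replicate 3. The CA3 sum includes Bok, which made up 100.2 of its 289.6 CPM there and 65.4 of 274.4 CPM in aged replicate 1. Without Bok the CA3 sum was not highest in adult replicate 3. This library was the highest for 17.4% of all genes tested. The 16 muscle markers, of which 16 were in the table and 0 were at 0 counts in any library, summed to 163 to 291 CPM in aged rats and 292 to 748 CPM in adult rats, the 748 in adult replicate 3. Part of each sum is Pvalb, which interneurons also express (mean 104.9 CPM). The muscle creatine kinase gene Ckm was at 17.6, 1.2 and 6.51 CPM in aged rats and at 18.2, 15.6 and 56.3 CPM in adult rats. Acta1, another of the muscle markers, was at 53.2, 28.4 and 38.4 CPM in aged rats and at 52.5, 53.5 and 149.8 CPM in adult rats. The 8 dentate markers, all in the table and 1 of them (Lct) at 0 counts in adult replicate 1, summed to 204 to 283 CPM in aged rats and 196 to 491 CPM in adult rats, the 491 again in adult replicate 3. Among them C1ql2, which encodes a synaptic protein of granule cells, was at 71.6, 73.7 and 83.3 CPM in aged rats and at 64.0, 68.0 and 175 CPM in adult rats. The part of any of these sources in the Ryr1 value was not tested.

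As shares of the family's summed FPKM, Ryr2 took 68.3 ± 5.61% in aged rats and 68.1 ± 4.65% in adult rats, and Ryr3 took 25.8 ± 4.26% in aged rats and 24.7 ± 7.27% in adult rats. Ryr1 took 5.89 ± 1.36% in aged rats and 7.22 ± 3.49% in adult rats. The summed ryanodine receptor FPKM was 23.5, 18.2 and 32.3 in aged rats and 22.6, 18.2 and 32.4 in adult rats. The 2 ages therefore spanned nearly the same range.

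Among the IP3 receptors, Itpr1 was at 349, 174 and 259 CPM in aged rats and at 188, 302 and 296 CPM in adult rats. One rat of each age, aged replicate 2 and adult replicate 1, lay well below the rest. Itpr1 averaged 260.9 ± 87.4 CPM in aged rats and 262.2 ± 64.1 CPM in adult rats. The log2 fold change was -0.0069 ± 0.27 (SE), with a 95% interval of -0.63 to 0.62 (edgeR adjusted p = 1.00).

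Itpr2 was at 16, 11.6 and 14.3 CPM in aged rats and at 14.2, 20.4 and 12.9 CPM in adult rats. Adult replicate 2 was its highest library, and the other five lay between 11.6 and 16 CPM. For Itpr2 the log2 fold change was -0.18 ± 0.22 (SE) with an interval of -0.69 to 0.34, and it was 0.046 without adult replicate 2. Astrocyte markers (10 of 10 in the table) summed to 2562, 2990 and 2636 CPM in aged rats and to 2768, 3227 and 2486 CPM in adult rats. They were also highest in adult replicate 2, but stood at 2990 CPM in aged replicate 2, where Itpr2 was lowest. The summed markers of endothelium, of pericytes and smooth muscle, and of CA1 pyramidal cells were highest in adult replicate 2 as well. The part of cell makeup in the Itpr2 value was not tested.

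Itpr3 was at 6.39, 6.35 and 6.01 CPM in aged rats and at 5.74, 8.53 and 5.07 CPM in adult rats. The 3 aged rats were close together and lay inside the adult range. Its log2 fold change was -0.046 ± 0.26 (SE), and 0.21 without adult replicate 2. Counts of Itpr3 were low, between 76 and 135 per library.

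Itpr1 made up nearly all IP3 receptor FPKM, with 92.6 ± 1.68% in aged rats and 92.2 ± 1.99% in adult rats. Itpr2 took 4.75 ± 0.791% in aged rats and 5.25 ± 1.31% in adult rats, and Itpr3 took 2.64 ± 0.903% in aged rats and 2.56 ± 0.681% in adult rats. The ratio of summed IP3 receptor to summed ryanodine receptor FPKM was 1.57, 1.07 and 0.911 in aged rats and 0.934, 1.86 and 0.956 in adult rats. It varied more between rats of one age than between the age means of 1.19 and 1.25 for aged and adult rats.

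**Figure D2:**
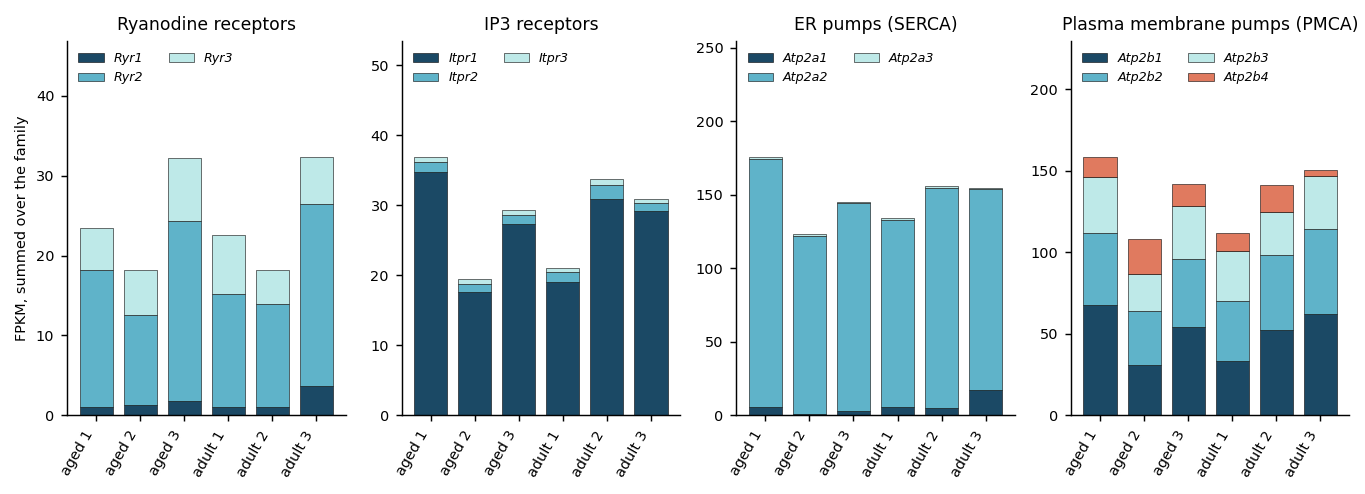
Summed FPKM of each channel or pump family in each library, on linear axes that start at 0, stacked by gene, with aged libraries left of adult libraries. Ryr2, Itpr1 and Atp2a2 form most of their families in all 6 rats. Atp2b4 is the thinnest PMCA segment in all 6 rats, and its share is smallest in adult replicate 3 (2.40% of the family).

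Among the pumps, Atp2a2 was at 902, 638 and 713 CPM in aged rats and at 670, 779 and 736 CPM in adult rats. The highest and the lowest rat were both aged, and the adult rats lay between them. The log2 fold change was 0.044 ± 0.16 (SE), and its 95% interval of -0.32 to 0.41 was the narrowest of the 10 genes (edgeR adjusted p = 1.00). Its spread within an age, an SD of 0.20 on the log2 scale, was near the median of the 11536 genes that averaged 5 CPM or more. The other SERCA genes were minor by FPKM, and Atp2a2 took 97.2 ± 1.31% of the family in aged rats and 93.2 ± 4.32% in adult rats. The lowest share, 88.2%, was that of adult replicate 3. There Atp2a1, the SERCA pump of fast skeletal muscle, was at 62 CPM, against 2.57 to 20.5 CPM in aged rats and 16.4 and 18.5 CPM in the other adult rats.

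Atp2b1 was at 482, 218 and 363 CPM in aged rats and at 233, 360 and 446 CPM in adult rats. As with Itpr1, aged replicate 2 and adult replicate 1 were the lowest. The means of 354.3 ± 132.3 CPM in aged rats and 346.5 ± 107.0 CPM in adult rats gave a log2 difference of 0.032 ± 0.32 (SE), and the interval was -0.70 to 0.76 (edgeR adjusted p = 1.00). Leaving out 1 rat moved it between -0.23 and 0.29.

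Atp2b2 was at 312, 227 and 280 CPM in aged rats and at 252, 319 and 371 CPM in adult rats. The ages overlapped, with the lowest rat aged and the highest adult. For Atp2b2 the log2 fold change was -0.20 ± 0.18 (SE), with an interval of -0.62 to 0.21 (edgeR adjusted p = 1.00), and it was below 0 whichever rat was left out (-0.33 to -0.059).

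Relative to the other PMCA genes, Atp2b2 was the only member whose share separated the ages. It took 27.8, 30.1 and 29.5% of PMCA FPKM in aged rats and 32.5, 32.8 and 34.6% in adult rats. The family here includes Atp2b3, which averaged 29.8 ± 6.20 FPKM in aged rats and 29.9 ± 3.20 FPKM in adult rats. The difference of -4.12 percentage points had an exact two-sided permutation p of 0.1, the smallest that 3 rats against 3 allow, and an adjusted p of 1.00 over the 10 shares tested. Of 14 marker lists, 4 also had sums that separated the ages, and all 4 were lower in aged rats. Those of myelinating oligodendrocytes (10 of 10 markers) were 6994 to 9382 CPM in aged rats and 11775 to 17766 CPM in adult rats, and those of pericytes and smooth muscle (12 of 12) were 128 to 191 CPM in aged rats and 214 to 288 CPM in adult rats. Liver markers (12 of 12, led by Ttr, with Apoa2 and Ahsg at 0 counts in some libraries) summed to 43.1 to 371 CPM in aged rats and 628 to 2116 CPM in adult rats. Ttr, also a choroid plexus marker, made up 2076 of the 2116 CPM in adult replicate 1. Without Ttr the ages overlapped in the liver sums. The muscle sums were separate by a narrow gap, with 291.06 CPM the highest in aged rats and 291.65 CPM the lowest in adult rats. Pvalb made up 98.8 CPM of the former (aged replicate 1) and 107.3 CPM of the latter (adult replicate 2). Without Pvalb the ages overlapped in the muscle sums too. The part of these marker lists in the Atp2b2 share was not tested. The other 9 shares had exact permutation p between 0.2 and 1.00, and their ages overlapped. Summed over the family, PMCA FPKM was 158.5, 108.2 and 141.8 in aged rats and 111.9, 141.6 and 150.4 in adult rats. The ratio of PMCA to SERCA FPKM averaged 0.920 ± 0.052 in aged rats and 0.906 ± 0.070 in adult rats, a narrow range beside that of the single genes.

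Atp2b4 had the largest fold change of the 10 genes and the widest interval but one. It was at 115, 196 and 115 CPM in aged rats and at 102, 150 and 33.5 CPM in adult rats. The aged rats lay above adult replicates 1 and 3 but not all above adult replicate 2, and adult replicate 3 stood far below all others. The log2 fold change was 0.58 ± 0.47 (SE), with an interval of -0.51 to 1.66 and an adjusted p of 1.00 by edgeR (unadjusted p = 0.255). It was 0.18 without adult replicate 3, 0.28 without aged replicate 2 and 1.07 without adult replicate 2. Adult replicate 3 was the lowest library for 16.6% of all genes tested. Microglia markers (10 of 10) summed to 437, 587 and 407 CPM in aged rats and to 453, 448 and 357 CPM in adult rats. Interneuron markers (8 of 8, with Npy at 0 counts in all libraries) summed to 847, 876 and 643 CPM in aged rats and to 761, 656 and 582 CPM in adult rats. Both lists were also highest in aged replicate 2 and lowest in adult replicate 3, and their part in the Atp2b4 values was not tested. The share of Atp2b4 in PMCA FPKM was 7.90, 20.0 and 9.31% in aged rats and 10.1, 11.8 and 2.40% in adult rats.

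**Figure D3:**
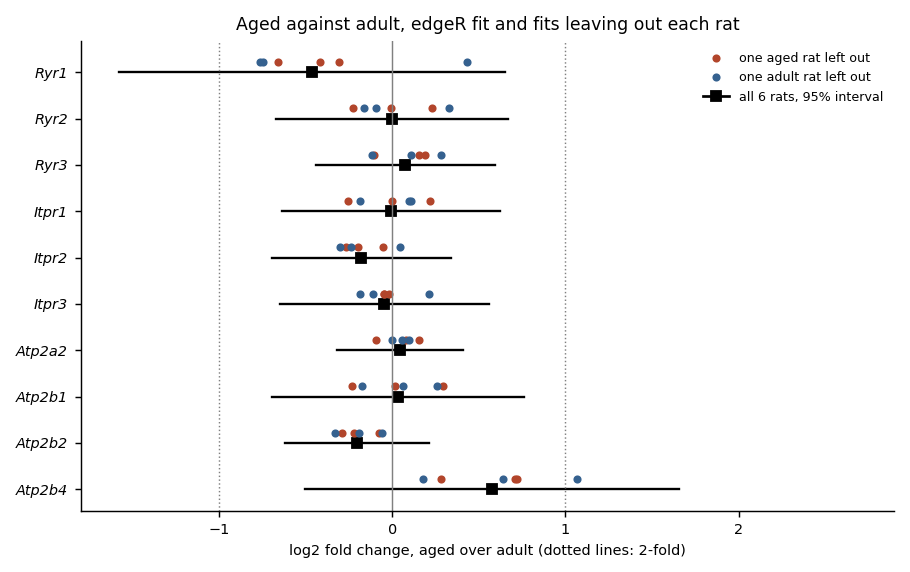
Log2 fold change of aged over adult rats for each gene, with black squares and lines for the edgeR estimate and 95% interval from all 6 rats and coloured points for fits that leave out 1 rat. Every interval crosses 0, and the estimates for Ryr1 (-0.77 to 0.43) and Atp2b4 (0.18 to 1.07) move furthest when 1 rat is left out.

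The rats differed from each other more than the ages did. Within an age, the SD of log2 CPM was 0.85 for Atp2b4 and 0.78 for Ryr1, larger than for 98.05% and 97.6% of the 11536 genes that averaged 5 CPM or more. It was 0.53 for Atp2b1, 0.47 for Ryr2 and 0.45 for Itpr1, larger than for 93.4%, 91.3% and 90.0% of them, beside a median of 0.20. The other members lay at 0.35 for Ryr3, 0.30 for Itpr2, 0.27 for Itpr3 and 0.26 for Atp2b2.

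For 4 genes, Itpr1, Atp2a2, Atp2b1 and Atp2b2, the lowest libraries were the same pair, aged replicate 2 and adult replicate 1. This order held for 12.7% of all genes tested. On the log2 scale Atp2b1 lay 0.62 and 0.52 below the mean of all rats there (-0.62 in aged replicate 2 and -0.52 in adult replicate 1), and Itpr1 was at -0.54 and -0.43. Slc17a7 was also lowest in this pair, at 762 CPM in aged replicate 2 and 681 CPM in adult replicate 1, against 981 to 1338 CPM in the other rats. Camk2a, another excitatory neuron marker, was also lowest there, at 149 CPM in aged replicate 2 and 102 CPM in adult replicate 1. It was at 203 to 395 CPM in the other rats. The summed excitatory neuron markers (8 of 8 in the table) had another order, at 5192, 4001 and 4060 CPM in aged rats and at 4815, 4178 and 6156 CPM in adult rats, so that adult replicate 1 was not low. Most of this sum was Nrgn, with a mean of 2829 CPM. The summed CA1 markers were lowest in adult replicate 1 (250.0 CPM) and next lowest in aged replicate 3 (316 CPM). The 10 choroid plexus markers, led by Ttr and with Otx2 at 0 counts in all libraries, summed to 10.8 to 75.6 CPM in aged rats and to 2164 CPM in adult replicate 1, against 27.8 and 53.5 CPM in the other adult rats. The part of cell makeup in the order of these 4 genes was not tested. Without both libraries, a setting chosen after seeing this pattern, the log2 fold changes were 0.031 for Itpr1, 0.10 for Atp2a2, 0.076 for Atp2b1 and -0.21 for Atp2b2, and edgeR called 0 of the 10 genes.

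Ryr2 and Ryr1 had another order, with adult replicate 3 highest and aged replicate 3 next for both. Atp2b4 ran the other way in adult replicate 3, at -1.64 from its mean, and was highest in aged replicate 2 at 0.90, where Atp2b1 was lowest. All 10 genes have long transcripts, with lengths of 5252 to 16156 bases behind the FPKM values. Among the 1458 longest genes tested, of at least 7566 bases, the median deviation was -0.12 in aged replicate 2 and 0.14 in aged replicate 3 and within 0.042 of 0 in the other libraries. Atp2b1 (6963 bases) falls in the next decile, of genes from 5618 bases, whose median was -0.095 in aged replicate 2 and -0.044 in adult replicate 1. The part of transcript length in the members' values was not tested.

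**Figure D4:**
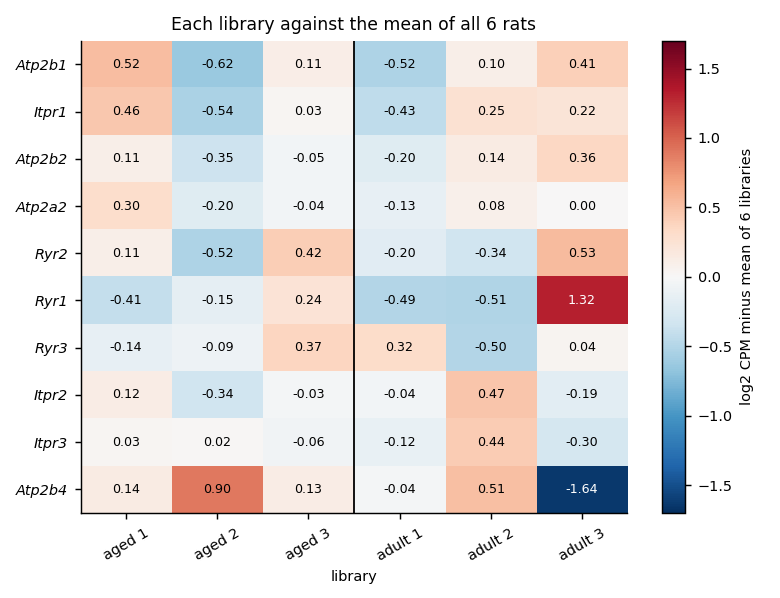
Log2 CPM of each gene in each library minus its mean over the 6 libraries, with aged libraries left of the line and adult libraries right of it. Red is above and blue below the mean. Atp2b1, Itpr1, Atp2b2 and Atp2a2 are low in aged replicate 2 and adult replicate 1, and the strongest cells are Ryr1 (1.32) and Atp2b4 (-1.64) in adult replicate 3.

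The rest of the calcium handling pathway was read from 11 lists with 125 different genes, of which 115 were tested. With edgeR, 0 were called in either direction, and 4 had an unadjusted p under 0.05, beside 3.45% of all genes. Of the 115, 52 had a log2 fold change above 0 and 63 below, with a median of -0.0062. The genes named below were picked for the smallest p of their list, so small p values among them are expected from the choice. The CPM values of the ages were separate for 7.56% of all genes tested, which stands beside each separation given below.

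Of 18 partners and junction proteins of ryanodine receptors, 3 were above 0 and 15 below, with a median of -0.13. Casq1, the calcium store protein of skeletal muscle ER, was at 2.73, 0.643 and 3.00 CPM in aged rats and at 4.23, 3.60 and 14.9 CPM in adult rats. The ages did not overlap, the unadjusted p was 0.0300 and the adjusted p 1.00 by edgeR. Hrc, another calcium binding protein of muscle ER, averaged 1.16 ± 0.483 CPM in aged rats and 2.25 ± 1.29 CPM in adult rats. Both genes were highest in adult replicate 3, where the muscle markers were highest. Casq1, like Atp2a1, is itself among the 16 muscle markers, and made up 14.9 of their 748 CPM there. The part of muscle RNA was not tested. Sri, which encodes sorcin, a calcium sensor that binds ryanodine receptors, averaged 114.2 ± 2.89 CPM in aged rats and 132.9 ± 29.7 CPM in adult rats. The list of other pumps had 1 of 4 above 0, with a median of -0.034. In it the Golgi pump gene Atp2c1 averaged 142.8 ± 19.3 CPM in aged rats and 147.8 ± 7.02 CPM in adult rats, Atp2a3, another ER pump, averaged 8.33 ± 2.23 CPM in aged rats and 7.50 ± 1.95 CPM in adult rats, and Atp2a1 averaged 11.3 ± 8.97 CPM in aged rats and 32.3 ± 25.7 CPM in adult rats.

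Upstream of the IP3 receptors, genes of IP3 production and breakdown had 14 of 20 above 0 and a median of 0.10. Itpkb, a kinase that removes IP3 by phosphorylating it, was at 48.7, 46.4 and 31.2 CPM in aged rats and at 34.8, 30.9 and 24.9 CPM in adult rats. The aged rats were higher apart from replicate 3, and edgeR gave an unadjusted p of 0.0449 and an adjusted p of 1.00. The phospholipase C genes Plcd4 and Plch2 averaged 26.1 ± 4.98 and 78.8 ± 10.8 CPM in aged rats and 32.2 ± 4.62 and 64.6 ± 20.6 CPM in adult rats. Of 11 IP3 receptor partners and calcium leak genes, 3 were above 0 (median -0.037). Bok, a Bcl-2 family protein that binds IP3 receptors, averaged 50.8 ± 13.0 CPM in aged rats and 70.1 ± 26.8 CPM in adult rats. Mrvi1, which encodes the IP3 receptor partner IRAG, averaged 3.61 ± 0.808 CPM in aged rats and 4.73 ± 0.752 CPM in adult rats. Its relative Lrmp averaged 14.3 ± 2.81 CPM in aged rats and 11.9 ± 1.16 CPM in adult rats.

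Regulators of the pumps had 3 of 6 above 0 (median -0.021). Sln, which encodes sarcolipin, a small inhibitor of SERCA pumps, was at 1.53, 2.97 and 1.81 CPM in aged rats and at 0.956, 1.26 and 0.666 CPM in adult rats. All aged rats stood above all adult rats at these low levels, with an unadjusted p of 0.0323 and an adjusted p of 1.00 by edgeR. Pln, encoding the related inhibitor phospholamban, averaged 1.35 ± 0.503 CPM in aged rats and 1.78 ± 0.588 CPM in adult rats. Bsg, encoding basigin, an auxiliary subunit of PMCA pumps, averaged 829.4 ± 105.7 CPM in aged rats and 999.3 ± 185.3 CPM in adult rats. Store-operated entry genes had 2 of 11 above 0 (median -0.077), with Orai2 at 83.5 ± 6.42 CPM, Orai3 at 13.4 ± 1.74 CPM and Trpc4 at 48.7 ± 13.0 CPM in aged rats, against 101.7 ± 37.1, 15.2 ± 1.02 and 42.8 ± 4.68 CPM in adult rats. ER luminal calcium binding proteins were evenly split, with 6 of 12 above 0 and a median of -0.0050. Their genes Sdf4, Pdia4 and Rcn1 averaged 90.7 ± 12.2, 47.9 ± 2.92 and 55.5 ± 6.87 CPM in aged rats and 79.3 ± 7.47, 51.6 ± 2.56 and 60.8 ± 12.1 CPM in adult rats.

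Cytosolic calcium buffers had 7 of 11 above 0 (median 0.14). Calb1, which encodes calbindin, the buffer of dentate granule and CA1 pyramidal cells, was at 187, 188 and 159 CPM in aged rats and at 133, 139 and 135 CPM in adult rats. Every aged rat stood above every adult rat, and Calb1 had the smallest p of the genes named from these lists, which were picked for small p. Its log2 fold change was 0.40 ± 0.12 (SE), at an unadjusted p of 0.00886 and an adjusted p of 1.00 by edgeR. The CA1 markers (6 of 6 in the table) summed to 316 to 537 CPM in aged rats and 250.0 to 626 CPM in adult rats, and like those of dentate granule cells their ages overlapped. The part of cell makeup in the Calb1 difference was not tested. Hpcal1, encoding the calcium sensor hippocalcin-like 1, was at 84.6, 240.4 and 93.7 CPM in aged rats and at 98.6, 72.6 and 42.7 CPM in adult rats. Its highest and lowest libraries were those of Atp2b4. Pvalb, the buffer of fast-spiking interneurons, was at 98.8, 106.2 and 70.6 CPM in aged rats and at 117.2, 107.3 and 129.3 CPM in adult rats. Every aged rat stood below every adult rat, by little between aged replicate 2 and adult replicate 2. Its log2 fold change was -0.36 ± 0.17 (SE), with an unadjusted p of 0.0629 and an adjusted p of 1.00 by edgeR. The summed interneuron markers, which include Pvalb, were at 847, 876 and 643 CPM in aged rats and at 761, 656 and 582 CPM in adult rats. Their ages overlapped, and they were lowest in adult replicate 3, where Pvalb was highest. Pvalb is also among the muscle markers. The part of cell makeup in the Pvalb difference was not tested.

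Sodium-calcium exchangers, the other route of calcium out of the cell, had 5 of 7 above 0 (median 0.16). Slc8a1, encoding the exchanger NCX1, averaged 237.8 ± 44.2 CPM in aged rats and 213.2 ± 11.7 CPM in adult rats. Slc24a4, a potassium-dependent exchanger, averaged 67.7 ± 10.8 CPM in aged rats and 58.1 ± 8.55 CPM in adult rats, and the mitochondrial exchanger gene Slc8b1 averaged 8.90 ± 1.60 CPM in aged rats and 7.16 ± 0.573 CPM in adult rats. Mitochondrial uptake genes had 5 of 10 above 0 (median 0.026), with the uniporter subunit genes Micu2 and Smdt1 at 69.6 ± 2.37 and 136.9 ± 26.6 CPM in aged rats and 63.8 ± 4.95 and 156.6 ± 28.1 CPM in adult rats. Genes of cyclic ADP-ribose and NAADP signalling had 3 of 5 above 0 (median 0.063). Cd38, the enzyme that makes the ryanodine receptor agonist cyclic ADP-ribose, averaged 9.02 ± 0.450 CPM in aged rats and 12.5 ± 3.34 CPM in adult rats. The endolysosomal channel genes Tpcn1 and Tpcn2 averaged 87.4 ± 7.28 and 15.0 ± 5.18 CPM in aged rats and 93.6 ± 3.62 and 11.7 ± 3.00 CPM in adult rats.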

How the data were processed

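RNA of the hippocampus of 6 male rats was sequenced, 3 per age, each library from 1 rat. The authors deposited raw counts per gene symbol and FPKM values. Dividing counts by FPKM and library total gave 1 length per gene in all libraries (18553 of 18553 genes with a value, within a ratio of 1e-06), so the tables are 1 measurement in 2 units. The build Rnor_6.0 is named in the submitters' processing notes. The aligner, counter, annotation and strand setting were not given in the sources used here.

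Counts were filtered with edgeR's filterByExpr (14588 genes), scaled by TMM and tested for aged against adult with the quasi-likelihood F test (edgeR 4.0.16, R 4.3.3). The test was two-sided and adjusted by Benjamini-Hochberg over all genes. SEs come from the F statistic and 95% intervals from its degrees of freedom. DESeq2 1.42.0 and limma 3.58.1 served as alternatives. Log2 CPM used a prior count of 2. Shares were compared by exact permutation tests (scipy 1.17.1). Figures were drawn with matplotlib 3.10.9. Intervals and tests cover only the variation between these 6 rats.

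The members and lists were chosen with earlier results of these data known. The genes named are the 10 members and, of each pathway list, the 3 with the smallest p at a mean of at least 1 CPM. A gene that this rule takes is not reported here. Single marker genes were picked after their values were seen. Genes matched the RefSeq annotation of another assembly, GRCr8, by symbol (10 of 10), and 9 of the 10 had a single promoter window. In that annotation 8 of the 10 overlap other genes, mostly non-coding, and Ryr1 overlaps the protein-coding LOC103689966. If counting ignored strand, reads of such pairs cannot be told apart. The replicate numbers did not pair the rats by the rule used, and that check is given with the sensitivity of the results.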

Additional observations from a re-analysis of the deposited data

How the results depend on the processing

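Under 17 planned settings and 1 added one, edgeR, DESeq2 and limma called 0 of the 10 members each time, and the smallest adjusted p of a member was 0.923. Over all genes, DESeq2 called 31 genes, limma on log2(FPKM + 1) called 2 (LOC100361898 and Polr2i), and leaving out 1 library gave 0 to 1 (Mff, Tma7 or LOC103690005). Without both adult replicate 1 and aged replicate 2, chosen after seeing the data, 1 was called (LOC100912599). These genes are named for their calls after their values were seen. At an unadjusted p under 0.05, edgeR found 773 genes without adult replicate 2.

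Of 180 recomputed fold changes of members, 158 kept their direction and 22 turned, 16 of these by leaving out 1 of the 6 libraries. The cause was not tested. Leaving out 1 library gave log2 ranges of -0.77 to 0.43 for Ryr1, -0.23 to 0.33 for Ryr2, -0.12 to 0.28 for Ryr3, -0.26 to 0.22 for Itpr1, -0.30 to 0.046 for Itpr2, -0.19 to 0.21 for Itpr3, -0.091 to 0.16 for Atp2a2 and -0.23 to 0.29 for Atp2b1. The others that turned lay near 0. Ryr2 was -0.0010 with limma-voom. Itpr1 was 4.2e-05 with RLE scaling, 0.0077 with library size scaling and 0.031 without both named libraries, and Itpr3 was 0.0026 with log2(FPKM + 0.1). Atp2b2 and Atp2b4 kept their direction in all 18.

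The shares turned 14 times in 70. Without 1 library, differences in percentage points ranged from -2.60 to 0.67 for Ryr1, -2.51 to 3.28 for Ryr2, -2.04 to 5.11 for Ryr3, -0.35 to 1.54 for Itpr1, -1.24 to 0.022 for Itpr2, -0.42 to 0.45 for Itpr3 and -2.56 to 4.41 for Atp2b1. That of Atp2a2 was 4.00 with all rats and ranged from 1.52 (without adult replicate 3) to 5.47, and that of Atp2b4 was 4.30 and ranged from 0.490 (without aged replicate 2; 1.44 without adult replicate 3) to 6.55 (without aged replicate 1). The difference of Atp2b2 ranged from -4.62 to -3.44, and its ages are separate by construction in each. The order of levels was the same in CPM per kilobase. Within each library this holds by construction, because both units use the same counts and lengths.

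Same-numbered rats did not deviate together (correlations of -0.015, -0.057 and 0.087 for numbers 1 to 3), so the numbers are not taken to pair them. With the replicate number as a block, edgeR called 0 of the 10 members, Atp2b1 was at -0.00095, and 1 member, Atp2b4, had an unadjusted p under 0.05 (0.0462, adjusted p = 1.00, log2 fold change 0.76).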
